A study of Mus musculus with 16 samples.

Results

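The activation of wild-type naive CD4 T cells was read by setting 3 arrays of cells stimulated for 4 h with plate-bound anti-CD3 and anti-CD28 (called stimulated here) against 3 arrays of unstimulated cells at 0 h (called resting). These 6 arrays were taken by their labels from a series of 16, in which 6 more hold Tsc1-deficient CD4 cells at the same times and 4 hold unstimulated CD8 cells, 2 for each genotype. The cells were sorted from mice on a C57BL/6 background, and stimulated cells were kept in Click medium on the antibodies. One sentence of the treatment text names HIF1a-deficient mice, while the genotype entries and titles name wild-type and Tsc1-deficient, and the latter were followed. The comparison asks which transcripts of a normal naive T cell had risen or fallen 4 h after its antigen receptor and the costimulatory receptor CD28 were engaged. The labels describe culture for stimulated cells only, so stimulation and 4 h in culture cannot be told apart. Whether replicate arrays stand for separate mice is not stated in the labels. The p-values therefore rest on a spread between arrays that may be technical only.

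A naive T cell is small and quiescent, and its genes for division, effector function and high metabolic flux are held low. Antigen bound to the T cell receptor, together with costimulation, starts calcium, MAP kinase and NF-kB signalling, and the transcription factors NFAT, AP-1 and NF-kB then switch on immediate early and cytokine genes within hours. Growth, DNA replication and division follow later, and signals from interleukin-2 and the kinase complex mTORC1 help to drive them.

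Total RNA was hybridised to Affymetrix mouse arrays, and values are log2 signals on the RMA scale, a standard summary of the probes of a probe set. Each of 17097 genes is represented by its brightest probe set. Of 211 called genes named here (Hspa1b and Hspe1 not counted), the change of 29 moved by over 1.5 times with the mean of all probe sets of a gene used instead. Of these 29 changes, 28 moved downward in size and 0 took another sign. For these 29 that value follows as the averaged change. The median of the whole table is 3.36, and a signal below it may be near background, so that the size of a change from or to such a level is uncertain. Arrays of a group correlated at 0.9964 to 0.9971 at rest and at 0.9966 to 0.9969 after stimulation, against 0.9725 to 0.9741 between the groups. The difference of the Gapdh control probe sets at the 3' and the 5' end, a sign of RNA quality, was 0.024 to 0.269 log2 units on these 6 arrays. A higher signal reports a larger share of the RNA on an array. In such bulk samples, fewer cells of a type and less RNA per cell cannot be told apart.

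After 4 h on the antibodies 5451 of 17097 genes had changed, and more of them fell than rose. The transcription factor gene Irf4 rose most, followed by the growth factor gene Il2, the chemokine gene Cxcl10 and the nuclear receptor gene Nr4a3. The transporter gene Slc16a5 and the ubiquitin ligase gene Dtx1 fell most. These orders are those of the brightest probe sets. By the averaged change Il2 (5.01) and Cxcl10 (4.82) came before Irf4 (4.24), Nr4a3 (2.23) was the 39th largest rise, Slc16a5 was still first among the falls and Dtx1 (-3.23) was the 15th. Limma's moderated test, adjusted by the Benjamini-Hochberg method over all genes, called 2182 genes higher (12.8% of those tested) and 3269 lower (19.1%) at adjusted p under 0.05. A gene said below to have risen or fallen passed this test, and changes are stimulated minus resting in log2 units with their standard error (±, n = 3 against 3).

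The fall was also the larger side among strong changes. At least 2-fold changes numbered 415 higher and 1111 lower, at least 4-fold changes 59 and 198, and at least 8-fold changes 16 and 28. Only at 32-fold or more did rises (2 genes) outnumber falls (1 gene). The arrays of the groups did not overlap for 5378 of the 5451 called genes, and for 7744 of all 17097 genes (45.3%). Most genes named below were taken only if their arrays did not overlap, so non-overlap is no added support for them. Over all 17097 genes the median change was -0.011, since RMA sets the arrays to a common distribution, and a change in total RNA per cell is not visible on this scale. Of the genes called higher, 112 went from below to above the table median, and 262 of those called lower went the other way. Tested alone, the 9535 genes above the table median in 1 or both groups gave 2219 higher and 3278 lower. Most gene lists below hold few genes under the table median in both groups. Their counts are best read beside this measure as well as beside all genes.

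**Figure D1:**
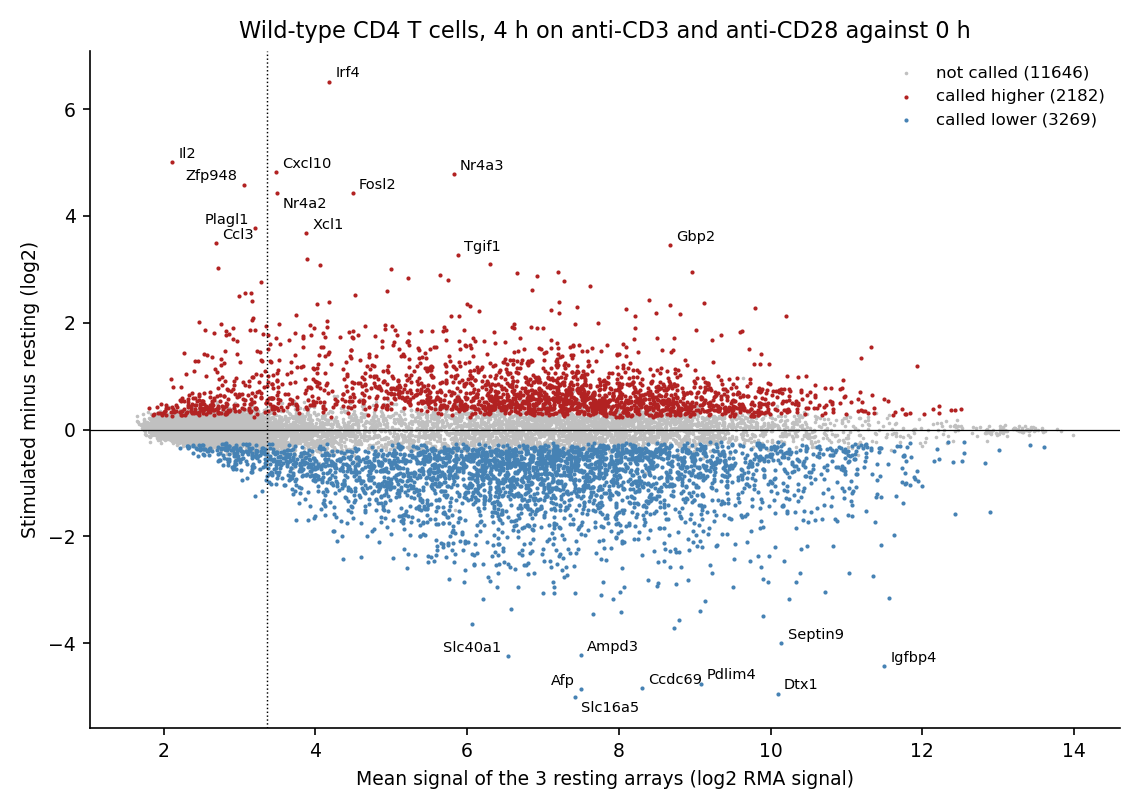
Change after 4 h (stimulated minus resting, log2, vertical axis) against the mean of the 3 resting arrays (log2 RMA signal, horizontal axis) for 17097 genes, with 2182 called higher in red, 3269 called lower in blue and the table median as a dotted line. Apart from Gbp2 (8.68 at rest), the labelled rises start from low or middle resting levels, with Irf4 at the top. The labelled falls start well above the table median.

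Irf4 encodes a transcription factor of the interferon regulatory factor family that antigen receptors induce in proportion to signal strength. It read 4.28, 4.13 and 4.14 on the resting arrays and 10.61, 10.68 and 10.81 on the stimulated arrays. The groups lie far apart and each is tight. The change was 6.52 ± 0.14 (91.4-fold, adjusted p = 1.23e-14 in limma). Il2, the main T cell growth factor, read 2.12, 2.02 and 2.20 at rest, below the table median on each array, and 6.51, 7.09 and 7.78 after stimulation. Its stimulated arrays spread more widely than those of Irf4, but none came near the resting level. The change was 5.01 ± 0.21 (adjusted p = 2.27e-11).

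Cxcl10, a chemokine that attracts activated T cells through the receptor Cxcr3, read 4.03, 3.26 and 3.16 at rest and 8.19, 7.67 and 9.04 after 4 h. Both groups spread widely, with a change of 4.82 ± 0.37 (adjusted p = 2.22e-08). Nr4a3, an orphan nuclear receptor and a rapid reporter of antigen receptor signalling, went from 5.84, 6.18 and 5.45 to 10.74, 10.67 and 10.40. Its change was 4.78 ± 0.21 (adjusted p = 4.36e-11), and 2 of its 3 probe sets were called higher. The sequences just upstream of these 4 starts are shown because no other gene of the table rose further by its brightest probe set.

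The windows below are the 250 bases before the annotated start of each gene, from RefSeq on build GRCm38.p6, written 5′ to 3′ along the gene. Irf4 lies on the plus strand (chr13:30748983-30749232), Il2 on the minus strand (chr3:37125955-37126204), Cxcl10 on the minus strand (chr5:92348890-92349139) and Nr4a3 on the plus strand (chr4:48045055-48045304). Capitals mark TATAAA in Irf4 and Il2. In Cxcl10 they mark GAAA, any 2 bases and GAAA (the repeat of interferon response elements), then GGGA, any 2 bases and TCCC (a palindromic NF-kB motif), then TGANTCA (the AP-1 motif). In Nr4a3 they mark each TGACG, the core of cyclic AMP response elements, or its reverse complement.
Irf4: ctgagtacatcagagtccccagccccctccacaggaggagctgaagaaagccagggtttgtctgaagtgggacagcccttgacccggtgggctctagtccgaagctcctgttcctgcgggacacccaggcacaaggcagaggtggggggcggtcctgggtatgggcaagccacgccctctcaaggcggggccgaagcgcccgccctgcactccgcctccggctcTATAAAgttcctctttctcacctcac
Il2: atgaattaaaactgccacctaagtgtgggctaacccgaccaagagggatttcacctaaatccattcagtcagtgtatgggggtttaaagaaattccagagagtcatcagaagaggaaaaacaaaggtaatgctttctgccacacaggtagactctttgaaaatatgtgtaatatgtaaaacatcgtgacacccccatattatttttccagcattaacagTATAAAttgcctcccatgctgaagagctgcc
Cxcl10: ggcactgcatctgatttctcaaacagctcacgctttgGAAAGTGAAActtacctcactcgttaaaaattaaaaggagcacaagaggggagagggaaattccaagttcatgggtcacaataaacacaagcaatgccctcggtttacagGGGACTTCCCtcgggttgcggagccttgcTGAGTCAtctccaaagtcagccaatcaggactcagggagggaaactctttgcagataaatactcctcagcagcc
Nr4a3: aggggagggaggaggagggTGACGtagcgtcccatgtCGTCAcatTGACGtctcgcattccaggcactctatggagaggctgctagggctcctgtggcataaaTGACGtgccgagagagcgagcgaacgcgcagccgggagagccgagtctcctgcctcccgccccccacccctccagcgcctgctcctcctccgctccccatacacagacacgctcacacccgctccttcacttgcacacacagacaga

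The TATAAA of Irf4 ends 21 bases before its start and that of Il2 26 bases before. The Cxcl10 window holds the interferon-type repeat from 213 to 204 bases before the start, the NF-kB palindrome from 103 to 94 and the AP-1 letters from 74 to 68. Nr4a3 has 4 TGACG cores between 231 and 143 bases before its start, 3 of them on the strand of the gene and 1, at 213 to 209, on the other. Such matches are letters in a window and show no binding.

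Windows were at hand for 13605 of the measured genes, 48 of the 59 at least 4-fold higher and 156 of the 198 at least 4-fold lower. Motifs were searched on both strands, except TATAAA, which was searched along the gene. The interferon-type repeat stood in 14.6% of the strongly higher genes (7 genes, namely Cxcl10, Fosl2, Gbp2, Gbp3, Igtp, Irgm1 and Irgm2), in 3.85% of the strongly lower ones and in 2.58% of all windows. The NF-kB palindrome stood in 8.33% (Cxcl10, Egr2, Gfi1 and Nfkb2), 1.28% and 0.720% in the same order. TGANTCA was in 12.5%, 5.13% and 5.67%, TATAAA in 8.33%, 6.41% and 6.05%, and TGACG in 29.2%, 17.9% and 23.1%. GGAAA, the core of NFAT sites, was in 52.1%, 60.3% and 54.5%, GCGGGGGCG, the EGR motif, in 6.25%, 0.641% and 4.12%, and CACGTG, the E-box of Myc, in 8.33%, 8.33% and 7.58%. The whole cyclic AMP response element TGACGTCA was in 0 of the 48 windows, 1.92% of the strongly lower ones and 2.29% of all. The order of several shares was another over the 1803 windows of all genes called higher, of which 2.27% held the interferon-type repeat, 0.943% the NF-kB palindrome, 3.83% TGANTCA, 3.83% TATAAA, 33.0% TGACG and 3.94% TGACGTCA. These shares describe the windows, and no test was made of them.

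Among the 15 largest rises were further transcription regulators. Fosl2, a partner of Jun proteins in AP-1, changed by 4.43 ± 0.19 (averaged 2.52), Nr4a2, a relative of Nr4a3, by 4.42 ± 0.44 (averaged 2.17), and the homeobox repressor Tgif1 by 3.27 ± 0.25. Nr4a2 had the widest spread of the 3 at rest, from 2.97 to 3.91, and reached 7.89, 8.16 and 7.68 after stimulation. The zinc finger gene Zfp948 changed by 4.59 ± 0.25 (averaged 3.03) from below the table median. Plagl1, another zinc finger factor, changed by 3.78 ± 0.21 (averaged 1.97). The call was lost (0.17) where probe sets whose names mark possible cross-hybridisation were left out and its other probe set was used. The chemokine genes Xcl1 (3.67 ± 0.21), Ccl3 (3.49 ± 0.20) and Ccl4 (3.20 ± 0.23) rose as well. Gch1, the first enzyme of tetrahydrobiopterin synthesis, read 6.23, 6.26 and 6.41 at rest and 9.20, 9.62 and 9.38 after 4 h. Its change of 3.10 ± 0.16 was among the more precise of the large rises. Gbp2, an interferon-inducible GTPase, rose by 3.46 ± 0.26 from an already high resting signal of 8.68 ± 0.17 (SD, n = 3), and Mir22hg, the host transcript of a microRNA, by 3.08 ± 0.26.

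The 20 textbook hallmarks of activation, chosen with earlier results of these data known, rose for the most part. Of these, 16 were called higher and 2 lower, with a median change of 1.77, against 12.8% higher, 19.1% lower and a median of -0.011 over all genes. Irf4, Il2 and the chemokine genes Ccl3 and Ccl4 rose most. Of the early response factors, Egr2, a zinc finger factor induced through MAP kinase signalling, read 6.09, 5.63 and 5.53 at rest and 8.47, 8.59 and 8.60 after 4 h. Nr4a1 read 7.95, 9.10 and 9.0 and then 10.98, 11.16 and 10.91, with resting replicate 1 more than 1 unit below its partners and a wide standard error (2.34 ± 0.43). Egr1 read 9.31, 9.42 and 9.32 at rest and rose by 1.78 ± 0.14.

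Surface hallmarks followed. Icos, a costimulatory receptor of the CD28 family, went from 8.35, 8.06 and 7.89 to 10.26, 10.46 and 10.33, a change of 2.25 ± 0.12. Cd69, which holds activated cells in lymphoid tissue, read 9.25, 9.77 and 9.84 at rest and 11.20, 11.56 and 11.60 after 4 h (1.84 ± 0.20). Il2ra, the high-affinity subunit of the interleukin-2 receptor, rose by 1.79 ± 0.20 and started below the table median. The tumour necrosis factor receptor family members Tnfrsf4 (OX40, 1.57 ± 0.14) and Tnfrsf9 (4-1BB, 1.10 ± 0.12) and the cytokine gene Tnf (1.01 ± 0.14) rose moderately. Ifng read 2.83, 2.78 and 2.87 and then 5.0, 4.03 and 4.74, so its stimulated arrays were high but uneven. Myc (0.58 ± 0.17), the growth regulator, and Tfrc (0.50 ± 0.11), the transferrin receptor, rose by less than 1 unit.

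Of the remaining hallmarks, Cd44, the hyaluronan receptor whose protein marks antigen-experienced cells, went the other way. Its resting arrays read 7.90, 7.93 and 7.90 and its stimulated arrays 6.52, 6.81 and 6.75, a change of -1.22 ± 0.12 (averaged -0.66, adjusted p = 6e-07 in limma), called by 2 of its 4 probe sets and called higher by 0. Cd40lg, the helper ligand for B cells, changed by -0.46 ± 0.15 at a signal near the table median. Its call was lost without resting replicate 2 (-0.28) and without stimulated replicates 1 or 3. Egr3 (0.07 ± 0.15, adjusted p = 0.809) and Bcl2l1 (0.16 ± 0.18, adjusted p = 0.596) were not called, and their arrays overlapped between the groups.

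**Figure D2:**
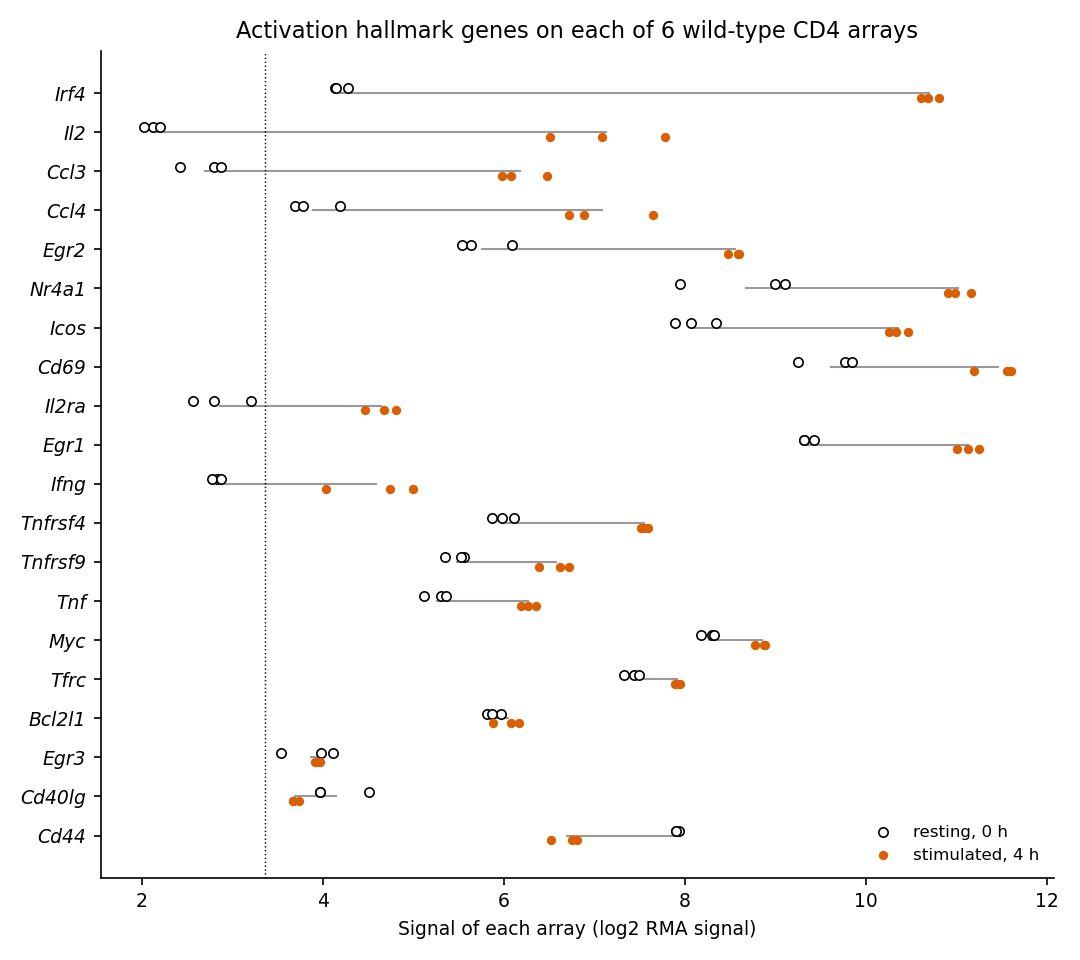
Signal (log2 RMA, horizontal axis) of the 20 activation hallmarks on each of the 3 resting (open points) and 3 stimulated (filled points) arrays, with grey lines joining the group means and the table median dotted. Irf4 and Il2 show the longest distances, Egr3 and Bcl2l1 overlap, and Cd40lg and Cd44 lie lower after stimulation.

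Genes that fell most started from high signals and ended, in part, near the table median. Slc16a5, a member of the monocarboxylate transporter family, read 7.33, 7.48 and 7.47 at rest and 2.65, 2.37 and 2.23 after 4 h. Its stimulated arrays all lie under the table median. The change of -5.01 ± 0.17 (adjusted p = 1.87e-12 in limma) is uncertain in size for that reason. Dtx1, a ubiquitin ligase of the Notch pathway that is linked to T cell anergy, read 10.04, 10.14 and 10.10 and then 5.25, 5.12 and 5.08. It stayed above the table median, and fell by 4.94 ± 0.13 (30.7-fold, adjusted p = 1.56e-13). Afp, the fetal serum protein alpha-fetoprotein, read 7.51, 7.52 and 7.48 at rest in these T cells and 2.66, 2.27 and 2.98 after stimulation, and 3 of its 5 probe sets were called lower (averaged change -2.50).

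Other large falls touched signalling, iron, nucleotide and cytoskeletal genes. Igfbp4, which binds insulin-like growth factors, had a resting signal of 11.64, 11.36 and 11.48 and a stimulated signal of 7.29, 6.93 and 6.99, and all 6 of its probe sets were called lower. Pdlim4, a PDZ and LIM domain protein of the actin cytoskeleton, changed by -4.76 ± 0.12, the cytoskeletal GTPase gene Septin9 by -4.0 ± 0.12 and the coiled-coil protein gene Ccdc69 by -4.84 ± 0.13 (averaged -2.58, and -2.35 without possibly cross-hybridising probe sets). Slc40a1, the iron exporter ferroportin, read 6.69, 6.18 and 6.74 and then 2.27, 2.40 and 2.22 (averaged change -2.61). The AMP deaminase gene Ampd3 changed by -4.22 ± 0.19. Sit1, an adaptor that dampens antigen receptor signals, changed by -3.57 ± 0.14, and Sema4a, a semaphorin, by -3.72 ± 0.18. Hsd11b1, which regenerates active glucocorticoid, changed by -3.49 ± 0.11, and Flt3l, the ligand of the receptor Flt3, by -3.42 ± 0.19. The transcript A530021J07Rik (-3.65 ± 0.19) and Lypd6b (-3.45 ± 0.43) complete the 15.

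**Figure D3:**
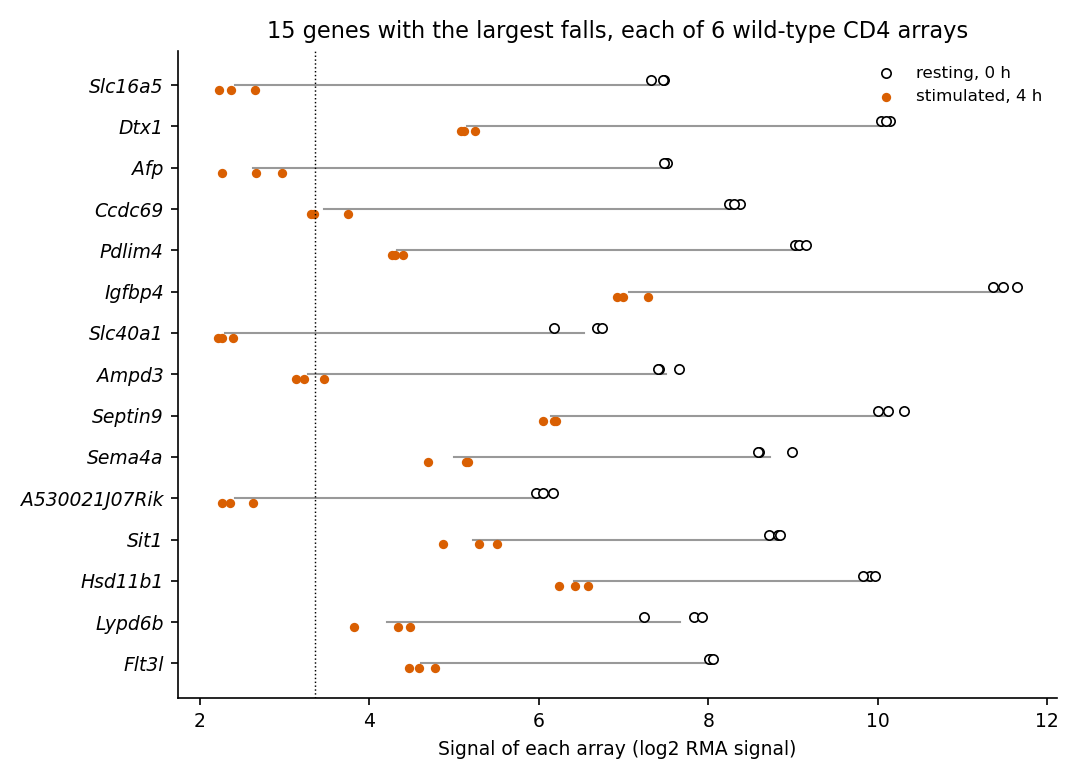
Signal (log2 RMA, horizontal axis) of the 15 genes with the largest falls on each of the 3 resting (open points) and 3 stimulated (filled points) arrays, with grey lines joining the group means and the table median dotted. For Slc16a5, Afp, Slc40a1 and A530021J07Rik all stimulated arrays lie below the table median, while Igfbp4 and Hsd11b1 remained well above it.

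Immediate early transcription factors moved both ways. Of 40 measured, 19 rose and 6 fell (median change 0.36). Besides Irf4, the Nr4a genes, Fosl2 and Egr2, the interferon regulatory factor Irf8 rose (3.0 ± 0.29). The AP-1 genes Fos, Jun, Junb and Jund fell from resting signals far above the table median. Fos read 10.48, 11.78 and 11.80 at rest and 8.45, 8.81 and 8.60 after 4 h, with wide spread at rest. Its change was -2.73 ± 0.44 (adjusted p = 8.93e-05). Jun (-2.19 ± 0.29, averaged -1.27), Junb (-1.72 ± 0.31) and Jund (-0.78 ± 0.16, averaged -0.33) fell with it, the calls of Jun and Jund each resting on 1 of 2 probe sets. Gata3 (-1.24 ± 0.18), the factor of helper T cell type 2 fate, and Prdm1 (-1.07 ± 0.22), a factor of terminal differentiation, also fell. The median of this list depended on resting replicate 1, without which it was 0.18, and it was 0.51 without resting replicate 3.

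Of 29 cytokine genes, 11 rose and 5 fell (37.9% and 17.2%), beside 12.8% and 19.1% of all genes. Of the 29, 13 stayed below the table median in both groups. Besides Il2 and Ifng, Lif (2.08 ± 0.20, averaged 0.89) and Tnfsf11 (1.40 ± 0.22, averaged 0.93), the ligand RANKL, rose. Ltb, the membrane anchor of lymphotoxin, fell by 1.05 ± 0.13 from a resting signal of 11.93, 12.03 and 12.04. The death ligands Tnfsf10 (TRAIL, -2.62 ± 0.17) and Fasl (-1.25 ± 0.17) and the CD30 ligand gene Tnfsf8 (-0.77 ± 0.19) fell too. Among 14 chemokine genes 5 rose and 1 fell (35.7% and 7.14%). The rises were Cxcl10, Xcl1, Ccl3, Ccl4 and Cxcl2 (1.44 ± 0.33), and the fall was Ccl6 (-1.03 ± 0.24), which ended below the table median. The chemokine median was 0.22, and 0.37 without stimulated replicate 1.

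Surface molecules and receptors moved both ways. Of 29 activation surface molecules, 13 rose and 7 fell (44.8% and 24.1%), beside 12.8% and 19.1% of all genes. Cd274, the inhibitory ligand PD-L1, read 7.32, 7.30 and 7.20 and then 10.12, 9.67 and 10.39, and Cd83, a marker of activated lymphocytes and dendritic cells, rose by 2.38 ± 0.12. Ly6c1 (-1.26 ± 0.16) and Cd86 (-0.92 ± 0.20) fell, and so did Cd6 (-0.81 ± 0.12), Cd27 (-0.76 ± 0.11), Btla (-0.70 ± 0.13) and Cd5 (-0.60 ± 0.12), receptors that T cells carry at rest. Of 23 cytokine receptor genes, 4 rose and 10 fell (17.4% and 43.5%, median -0.29). The interferon gamma receptor chain Ifngr1 rose by 1.99 ± 0.09, Il2ra as above, and the TGF-beta receptor Tgfbr1 by 0.86 ± 0.14 (averaged 0.49). Tgfbr3 (-2.36 ± 0.17, averaged -1.36), Il18r1 (-1.92 ± 0.09), Il27ra (-1.68 ± 0.11) and Il6st (-1.23 ± 0.09, averaged -0.73), the shared chain of interleukin-6 family receptors, fell.

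NF-kB genes rose broadly. Of 21 subunits and regulators, 13 were called higher and 2 lower, with a median change of 0.63. The shares were 61.9% and 9.52%, beside 12.8% and 19.1% of all genes. Nfkb2 read 6.39, 5.91 and 5.82 at rest and 8.12, 8.45 and 8.47 after 4 h. Relb, its partner in the alternative NF-kB pathway, went from 7.23, 7.21 and 6.87 to 9.28, 9.39 and 9.35. In both genes every stimulated array stood above every resting one, which was a condition for naming them. Rel (1.80 ± 0.21), the NF-kB subunit most tied to lymphocyte activation, Nfkbid (1.41 ± 0.19), an atypical inhibitor protein, and Birc3 (1.23 ± 0.12) and Map3k8 (1.15 ± 0.22), which act upstream, rose as well. The kinase gene Ikbke fell (-0.46 ± 0.11).

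Inhibitors that feed back on signalling were split, with 17 of 38 higher and 8 lower (45% and 21%), beside 12.8% and 19.1% of all genes. Spry1, an inhibitor of MAP kinase signalling, rose by 2.15 ± 0.24, Socs1, an inhibitor of cytokine signalling, by 1.95 ± 0.20, and the ubiquitin ligase gene Cblb by 1.71 ± 0.18. The kinase gene Pim1 (1.53 ± 0.25) and the regulator of G protein signalling Rgs16 (1.39 ± 0.23) rose too. Socs3 (-1.19 ± 0.28, and -0.74 without resting replicate 1), the phosphatase gene Ptpn6 (-1.10 ± 0.13) and the diacylglycerol kinase gene Dgkz (-1.27 ± 0.11) fell. The machinery of the T cell receptor itself was more often lower. Of 30 genes, 15 fell and 6 rose (median -0.38). Themis, an adaptor of T cell receptor signalling, read 9.07, 9.07 and 8.95 and then 6.87, 6.82 and 6.86. Prkcq (-1.62 ± 0.12), the protein kinase C isoform of the synapse, Cd3g (-1.37 ± 0.08), a chain of the receptor complex, and Grap2 (-1.12 ± 0.15) fell. The calcium channel gene Orai1 (1.55 ± 0.17) and its sensor Stim1 (0.47 ± 0.13), Bcl10 (1.10 ± 0.15), which links the receptor to NF-kB, and the kinase gene Fyn (0.49 ± 0.09) rose.

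Genes of naive cell quiescence moved both ways. Of 26, 6 rose and 8 fell (23.1% and 30.8%, median -0.11), beside 12.8% and 19.1% of all genes. The cell cycle inhibitor Cdkn2c (-1.58 ± 0.17), Id2 (-1.02 ± 0.18) and Runx1 (-1.01 ± 0.09, by all 6 probe sets) fell. Klf2, which keeps T cells quiescent and recirculating, read 10.88, 11.18 and 11.13 at rest and 11.75, 11.50 and 11.51 after 4 h, and so rose by 0.52 ± 0.11. Txnip (0.93 ± 0.15), an inhibitor of glucose uptake, Bach2 (0.75 ± 0.13), Slfn2 (0.53 ± 0.09) and Satb1 (0.44 ± 0.10, averaged 0.70) rose as well.

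Homing and adhesion genes were more often lower, with 10 of 19 called lower and 2 higher (52.6% and 10.5%, median -0.55). Over all genes the shares were 19.1% and 12.8%. Itgb7, the chain of gut-homing integrins, read 10.22, 10.27 and 10.26 at rest and 7.15, 7.04 and 7.02 after stimulation. Its stimulated arrays were all far below its resting ones, where non-overlap was a condition for naming it. Ccr9, the chemokine receptor of the small intestine, changed by -2.94 ± 0.19 (averaged -1.27, and -1.80 without possibly cross-hybridising probe sets). The LFA-1 chains Itgal (-1.47 ± 0.12) and Itgb2 (-1.71 ± 0.12) fell together with Itga4 (-1.05 ± 0.10), the latter by all 5 of its probe sets. P2ry10, a lysophospholipid receptor, was the member that rose most (2.37 ± 0.11). Of 8 GIMAP GTPases, which support lymphocyte survival, Gimap9 rose by 0.86 ± 0.10 and Gimap5 by 0.46 ± 0.11, Gimap7 fell by 1.01 ± 0.10, and 3 in all were called higher and 1 lower.

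Growth lists differed at 4 h, with few calls among ribosome genes. Of 10 Myc network genes 3 rose and 1 fell, with Mxd1, an antagonist of Myc, ahead of Myc itself (1.38 ± 0.12 against 0.58 ± 0.17). Of 37 ribosome biogenesis genes 3 rose and 5 fell (8.11% and 13.5%), beside 12.8% and 19.1% of all genes. Ubtf, a transcription factor of RNA polymerase I, changed most among them, at 8.52, 8.64 and 8.65 and then 6.37, 6.44 and 6.31. Noc4l rose (0.84 ± 0.14) and Utp20 fell (-0.79 ± 0.10). Of 33 cytosolic ribosomal proteins limma called 0 in either direction, and at an unadjusted p under 0.05 it found 0 higher and 1 lower. Of 18 translation factors 6 rose and 1 fell. Eif5 (0.77 ± 0.08) and Eif1a (0.51 ± 0.11) rose, and Pdcd4, an inhibitor of the helicase Eif4a, fell (-0.88 ± 0.09).

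Falls outnumbered rises among genes of biosynthesis, as they did over all genes (19.1% lower and 12.8% higher). Of 27 ATF4 targets and tRNA synthetases 15 fell and 4 rose (median -0.34), led by Cebpb (-2.11 ± 0.23) and the serine synthesis genes Psph (-1.49 ± 0.14) and Phgdh (-1.22 ± 0.13). Of 22 nucleotide and polyamine genes 9 fell (40.9%) and 3 rose (13.6%). Odc1, the rate-limiting enzyme of polyamine synthesis, read 4.84, 4.91 and 5.10 at rest and 7.30, 7.78 and 7.57 after 4 h. It was the largest change of its list (2.60 ± 0.23) and ran against most members. Prps2 (-2.15 ± 0.11, averaged -1.37), Mthfd1 (-1.38 ± 0.12), Cad (-1.17 ± 0.18, averaged -0.77) and Dhodh (-1.06 ± 0.11), all enzymes on the way to nucleotides, fell. Of 19 sterol and fatty acid genes 10 fell and 1 rose (median -0.46), with Elovl6 (-1.92 ± 0.17), Dhcr7 (-1.67 ± 0.10) and Mvd (-1.18 ± 0.12, and -0.70 without possibly cross-hybridising probe sets) in front.

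Falls also outnumbered rises among genes of energy metabolism, as they did over all genes (19.1% lower and 12.8% higher). Of 20 glycolysis and pentose phosphate genes 10 fell and 1 rose. Pdk1, a kinase that restrains pyruvate dehydrogenase, went from 10.66, 10.34 and 10.47 to 8.81, 8.69 and 8.75, and Tpi1 (-1.25 ± 0.12) and Pfkm (-1.27 ± 0.16) fell. The member that rose was the hexokinase gene Hk2 (0.98 ± 0.21), from below the table median. The median of this list was -0.29, and -0.14 with the probe sets of each gene averaged. Of 27 oxidative phosphorylation subunits 11 fell (40.7%) and 2 rose (7.41%), by less than 1 unit each. Examples were Ndufb3 (-0.81 ± 0.12), Ndufb10 (-0.72 ± 0.09) and, upward, Cycs (0.65 ± 0.17). Neither this list nor the glycolysis list held a gene below the table median in both groups. For them the nearer measure is the 3278 lower and 2219 higher of 9535 genes. Nutrient transporters were balanced, with 6 of 21 higher, among them Slc7a6 (0.99 ± 0.15, averaged 0.51) and Slc16a1 (0.84 ± 0.17, averaged 0.40), and 6 lower, among them Slc38a1 (-0.70 ± 0.12) and Slc25a32 (-0.83 ± 0.13). Of 30 mitochondrial ribosome and import genes 6 rose and 7 fell.

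Genes of the chaperone and proteasome list rose where they were called. Of 37 chaperone and proteasome genes 20 rose (54%) and 0 fell in limma, beside 12.8% and 19.1% of all genes. At an unadjusted p under 0.05 limma found 20 higher and 1 lower (median of the list 0.31). The cochaperone Stip1 read 7.48, 7.57 and 7.31 at rest and 8.52, 8.50 and 8.63 after 4 h. The groups did not overlap, which was a condition for naming it. Hsph1 (0.95 ± 0.17) and Hsp90aa1 (0.61 ± 0.15), heat shock proteins, and the proteasome genes Psme3 (0.84 ± 0.10), Psmd1 (0.82 ± 0.10) and Psmb5 (0.63 ± 0.10) rose as well. The list does not hold every chaperone gene. Outside it, the heat shock gene Hspa1b changed by -3.40 (averaged -3.50), and Hspe1, counted with the mitochondrial genes, by -0.76 ± 0.10.

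Cell cycle genes had moved in part. Of 30 DNA replication genes 12 rose and 5 fell (median 0.20). The licensing factor Cdt1 (0.70 ± 0.08), Rfc3 (0.69 ± 0.14) and Orc6 (0.61 ± 0.17) rose, while Chaf1b (-1.09 ± 0.14, averaged -0.58), Rfc4 (-1.08 ± 0.15) and Pola1 (-0.94 ± 0.15) fell. Of 25 G1 regulators 6 rose and 9 fell. E2f1 rose (1.18 ± 0.14) and E2f2 fell (-2.34 ± 0.16). The inhibitors of cyclin-dependent kinases were split, with Cdkn1a (1.27 ± 0.23) and Cdkn1c (1.03 ± 0.15) higher and Cdkn2d (-2.19 ± 0.18) lower. Among 26 mitosis genes 11 lay below the table median in both groups, beside 7562 of all 17097 genes. Limma called 2 of the 26 higher and 2 lower (7.69% each). Ndc80, a kinetochore protein, rose (1.42 ± 0.22), and the kinesin gene Kif23 (-1.38 ± 0.26, averaged -0.72) and Mki67 (-0.71 ± 0.15), the proliferation marker, fell to below the table median. The median of the mitosis list was 0.029, and -0.12 without stimulated replicate 2.

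Of 26 apoptosis genes 9 rose and 4 fell (34.6% and 15.4%), beside 12.8% and 19.1% of all genes. Bcl2, the survival factor of resting T cells, read 9.37, 9.27 and 9.23 at rest and 7.21, 7.09 and 7.07 after 4 h. Bcl2a1a, a related survival factor and NF-kB target, went the opposite way, from 7.27, 7.28 and 7.10 to 9.42, 9.80 and 9.59. Near-identical copies of Bcl2a1a exist, so its probe set may read more than this gene. Gadd45b (2.62 ± 0.26) and the death-promoting Bcl2l11 (1.23 ± 0.11, by all 5 probe sets) rose, and Casp8 fell (-0.76 ± 0.12). Of 25 lysosome and autophagy genes 9 rose and 9 fell. The regulators Ulk1 (1.52 ± 0.12) and Tfe3 (1.32 ± 0.09) and the membrane protein Lamp2 (1.32 ± 0.12) rose, while the enzymes Ctsa (-1.58 ± 0.13, averaged -0.82), Gusb (-1.32 ± 0.12) and Ctsd (-1.24 ± 0.10) fell. Of 25 mTOR pathway genes 7 rose and 6 fell (28.0% and 24.0%). Ddit4, an inhibitor of mTORC1, read 9.27, 9.04 and 9.10 and then 5.90, 6.28 and 5.59, the largest change of the list. The sestrins Sesn3 (0.89 ± 0.09) and Sesn2 (0.75 ± 0.16), also inhibitors, rose.

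Interferon response genes divided. Of 25, 5 rose and 9 fell (median -0.37). The rises were Gbp2, Gbp3 (2.93 ± 0.27), Socs1, Irf1 (1.84 ± 0.14) and Stat2 (1.02 ± 0.19). Irf1 read 9.68, 9.60 and 9.52 at rest and 11.59, 11.14 and 11.57 after 4 h. The falls included Isg20 (-2.06 ± 0.27) and Cmpk2 (-1.64 ± 0.35, averaged -1.05), genes best known for induction by type I interferon. Array choice weighed on this median. It was -0.12 without resting replicate 1, -0.61 without resting replicate 3, -0.22 to -0.24 without stimulated replicates 2 or 1, and -0.56 without stimulated replicate 3.

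Effector and memory genes that were called were lower with 1 exception. Of 27, 1 rose, 12 fell and 14 were not called (median -0.55). The shares were 3.70% higher and 44.4% lower, beside 12.8% and 19.1% of all genes. Tbx21, the factor of helper T cell type 1 fate, rose by 1.87 ± 0.24 from below the table median. The galectin gene Lgals1 read 9.51, 9.43 and 9.63 at rest and 7.03, 7.13 and 7.16 after 4 h. Nkg7 (-2.57 ± 0.23), Prf1 (-2.48 ± 0.23, averaged -1.11), the pore-forming perforin, and the lectin-like receptor gene Klrd1 (-1.73 ± 0.11) fell. These last 3 are also markers of NK or NKT cells, a list that fell as described next.

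**Figure D4:**
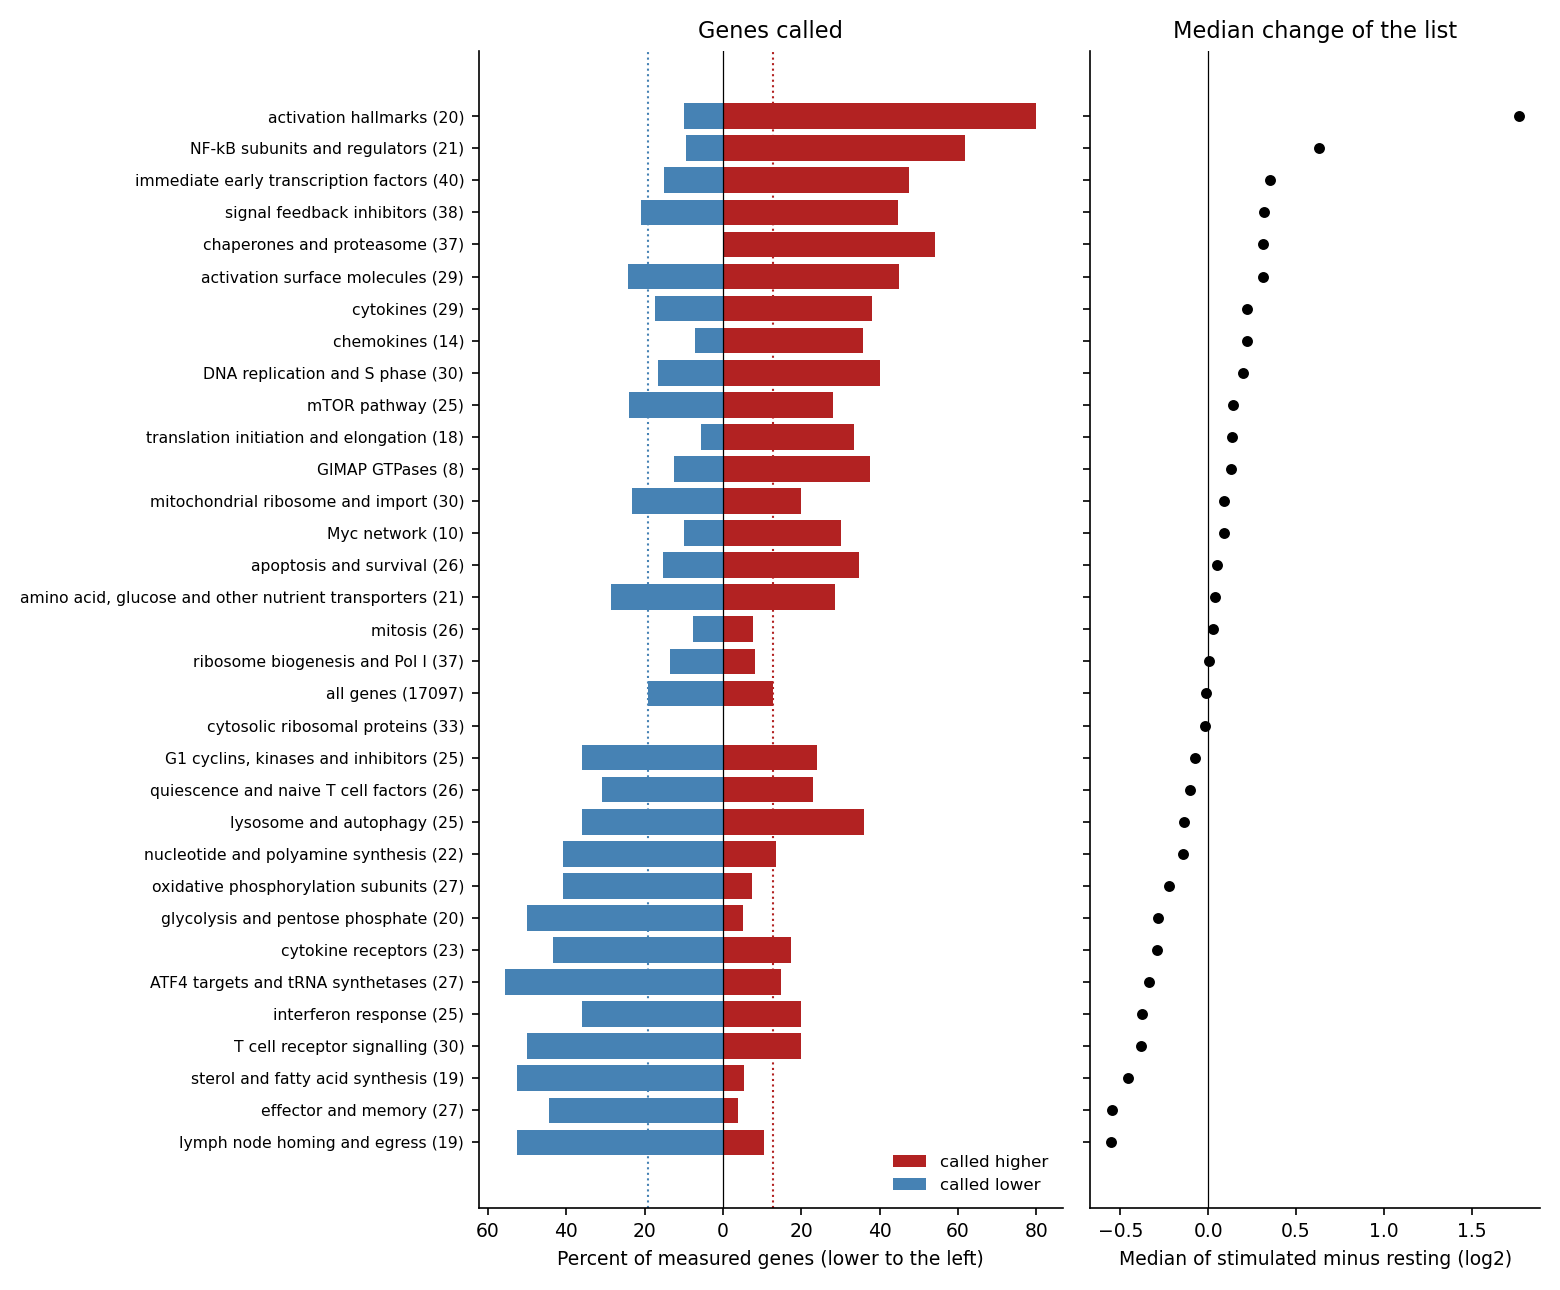
For 32 gene lists and all 17097 genes, the percent of measured genes called higher (red) and lower (blue, to the left), with dotted lines at the 12.8% and 19.1% of all genes, and the median change (log2) on the right. Measured genes per list stand in brackets. The activation hallmarks and NF-kB genes lie at the top, the homing and effector lists at the bottom, and cytosolic ribosomal proteins show no call.

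Markers of the sorted cells and of other cells were read in the same way. The CD4 T cell list fell, with 5 of 5 measured genes lower, among them Cd4 (-1.58 ± 0.21), Cd3e (-1.03 ± 0.13) and Zbtb7b (-1.33 ± 0.15), the lineage factor. The mean signal of the list went from 8.21 to 8.44 at rest to 7.07 to 7.25 after stimulation, so the labelled cell type was plainly detected in both groups. Genes of the CD8 lineage were detected too. Their list mean was 6.27 to 6.67 at rest and 5.24 to 5.79 after stimulation, with Cd8b1 (-1.68 ± 0.19) and Cd8a (-1.37 ± 0.21) lower.

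Markers of B, NK and myeloid cells were in part above the table median at rest (7 of 10, 5 of 9 and 9 of 14 genes) and lower after 4 h. Of 10 B cell genes 6 fell, such as Ms4a1 (-1.67 ± 0.24), with list means of 3.91 to 4.15 and then 3.41 to 3.47. Of 9 NK or NKT genes 5 fell, with list means of 4.64 to 4.83 and then 3.55 to 3.62, while Ncr1, which defines NK cells, was below the table median in both groups (2.44 and 2.38). Of 14 monocyte, macrophage or dendritic cell genes 9 fell, such as C1qa (-2.60 ± 0.37), Mpeg1 (-2.17 ± 0.22) and Lyz2 (-2.14 ± 0.31), with list means of 4.30 to 4.50 and then 3.53 to 3.65. In each of these 3 lists the resting and stimulated arrays did not overlap and 0 genes rose, also at an unadjusted p under 0.05 in limma. Over all genes 12.8% rose and 19.1% fell. The part of these cells in the falls of other lists was not tested.

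Other lists showed less. Of 9 neutrophil genes and of 5 erythroid genes limma called 0, with 0 and 1 at an unadjusted p under 0.05. Of 10 regulatory T cell genes 2 rose, Il2ra and Ctla4 (1.44 ± 0.33), and 3 fell, including Izumo1r (-1.57 ± 0.15) and Nrp1 (-1.05 ± 0.22), while the defining factor Foxp3 changed by -0.01 ± 0.18 at a signal of 3.80 and was not called. Of 6 immature thymocyte genes 2 fell, Cd1d1 (-2.13 ± 0.11) and Dntt (-1.75 ± 0.23). The lists of gamma delta T cells (3 genes) and platelets (5 genes) each held 1 gene called higher, Il17a and Gp1bb, both below the table median in both groups, and the call of Gp1bb was lost without resting replicates 1 or 3 or stimulated replicates 1 or 2 (0.24 to 0.30).

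**Figure D5:**
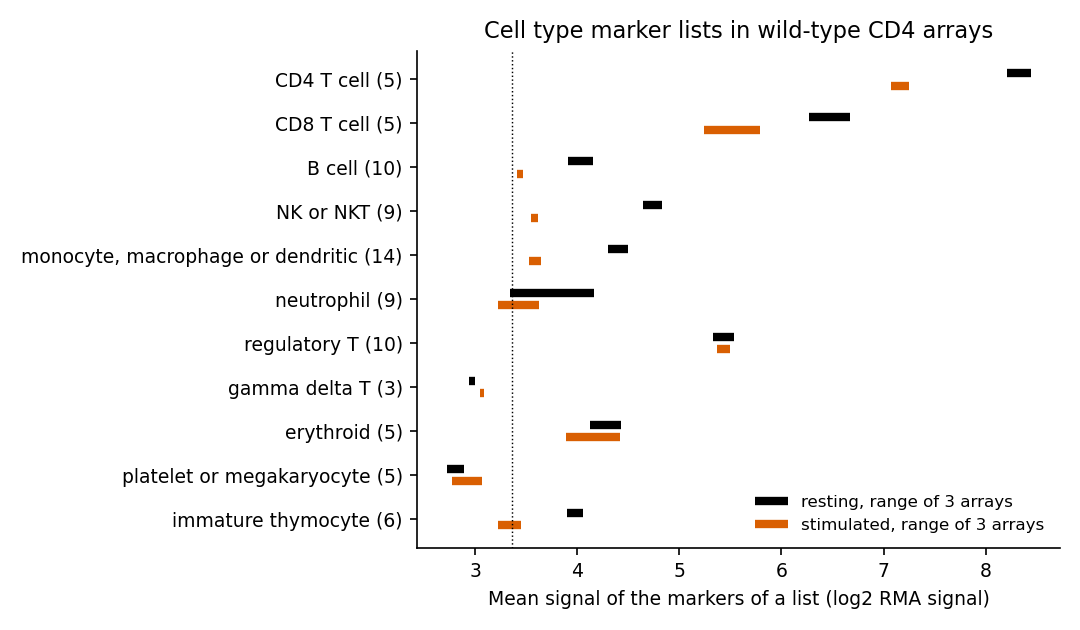
Range over 3 arrays of the mean signal (log2 RMA, horizontal axis) of 11 cell type marker lists at rest (black) and after stimulation (orange), with the number of measured genes in brackets and the table median dotted. The CD4, CD8, B, NK, myeloid and thymocyte lists lie lower after stimulation, and the neutrophil, regulatory T, erythroid and platelet ranges overlap. The gamma delta T list lies slightly higher after stimulation, below the table median in both groups.

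The response of wild-type cells was set beside that of Tsc1-deficient CD4 cells, measured on 6 other arrays. Tsc1 is a subunit of a complex that restrains mTORC1. Over all genes the changes of both genotypes correlated at a Pearson r of 0.904, which describes 17097 genes that are not independent. The difference of the responses, tested as an interaction in the same limma fit, was called for 206 genes (1.2% of those tested), 113 with the more positive change in wild-type cells and 93 with the more negative. It was called for 20 of the 415 genes at least 2-fold higher and for 57 of the 1111 at least 2-fold lower. These genes were picked by the wild-type change, which is part of the difference, so their shares cannot be set against the 1.2%.

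Irf4 rose more in wild-type than in deficient cells (6.52 ± 0.14 against 5.09 ± 0.14), and Fyn changed by 0.49 ± 0.09 against -0.08 ± 0.09. Mxd1, Plagl1 and Ifng rose less in wild-type cells, at 1.38 ± 0.12 against 2.76 ± 0.12, 3.78 ± 0.21 against 5.48 ± 0.21 and 1.77 ± 0.23 against 3.34 ± 0.23. The call for Ifng was lost without any of the 3 resting wild-type arrays, without stimulated wild-type replicate 2 and without deficient resting replicates 1 and 2. That for Fyn was lost without any CD4 array but stimulated wild-type replicate 1 and stimulated deficient replicates 1 and 3, and those for Plagl1 and Cd44 with probe sets averaged. Cd44 fell further in wild-type cells (-1.22 ± 0.12 against -0.24 ± 0.12), as did Ccdc69 and A530021J07Rik. The call for Ccdc69 was lost with probe sets averaged and without possibly cross-hybridising probe sets. Ccr9, Klrd1 and Cd3g fell less, with Ccr9 at -2.94 ± 0.19 against -4.85 ± 0.19. For Il2 the responses were 5.01 ± 0.21 and 4.40 ± 0.21, and the difference was not called (adjusted p = 0.429). For Dtx1 they were -4.94 ± 0.13 and -4.91 ± 0.13 (adjusted p = 0.975). The count of 206 was 115 without wild-type resting replicate 1, 109 without resting replicate 2 and 112 without stimulated replicate 2. Of the deficient arrays, resting replicates 1 and 2 lowered it to 115 and 103 when left out. It was 351 with array weights and 325 without the 2 arrays with the largest Gapdh differences, both of deficient cells (0.956 on stimulated CD4 replicate 1 and 0.642 on CD8 replicate 2).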

How the data were processed

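Per the labels and the submitters' processing notes, the authors made the deposited log2 values from Affymetrix arrays with RMA in Partek 6.5, and these were used as deposited. A genome build for the arrays is not given in the sources used. Of 45141 probe sets, 28898 name 1 gene in the platform annotation, 551 several and 15588 none, and 104 are controls. Each of 17097 genes is read by its brightest probe set over the 16 arrays (7180 genes have more than 1). Entrez identifiers of 28689 probe sets were checked against RefSeq, and 0 symbols changed. All per-sample columns were used or mapped.

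Limma 3.58.1 in R 4.3.3 fitted 1 mean per group over all 16 arrays (10 residual degrees of freedom, prior SD 0.146 with 6.23 prior degrees of freedom), with stimulated minus resting wild-type CD4 cells and its difference from deficient cells as contrasts, two-sided, adjusted by the Benjamini-Hochberg method and called at 0.05. The standard error of a change had a median of 0.122. The pipeline was tested on simulated data.

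The gene lists (888 of 1000 entries measured, 2 through a synonym) and the genes shown were chosen with earlier results of these data known, and lists are described by counts and medians without a set test. Named genes are the 15 largest rises and 15 largest falls, all hallmarks and up to 4 genes of each marker list. From each other list come up to 6 members by size of change, besides members against its majority. The largest changes and these list members had to be called, with non-overlapping arrays and a higher group mean above the table median. Called list members that overlapped or were dim were therefore left out, also those against the majority. Hallmarks and markers did not have to pass this filter. Foxp3, Ncr1, Gfi1, Hspa1b and members of the families under other observations were added after their values were seen. Not every gene so taken is printed. Upstream sequences came from a RefSeq table, and 9 motifs were counted in them. Python 3.11.15 with matplotlib 3.10.9 drew the figures.

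The alternatives were averaged probe sets, every probe set, probe sets without the suffixes x and s, dim genes left out, median centring, quantile normalization, array weights, a robust prior with an intensity trend, fits of the 12 CD4 or 6 wild-type CD4 arrays, a 2-fold threshold, a replicate block, each wild-type array left out (for the difference between genotypes, each CD4 array), and the 2 arrays with large Gapdh differences left out.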

Additional observations from a re-analysis of the deposited data

Results flagged for a closer look

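The response to stimulation differed between wild-type and Tsc1-deficient CD4 cells for 23 of 215 genes named above, by the interaction test in limma over all genes (1.2% of which were called). Most named genes were taken by the size of their wild-type change, which is part of the difference. Their share therefore cannot be set against that of all genes. Values are the wild-type change minus the deficient change in log2 units with the standard error, over 3 arrays in each of 4 groups.

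Among genes that rose, the difference was 1.43 ± 0.19 for Irf4 (adjusted p = 0.00137) and 0.57 ± 0.12 for Fyn. It was -1.71 ± 0.30 for Plagl1, -1.58 ± 0.33 for Ifng, -1.38 ± 0.16 for Mxd1 (adjusted p = 0.000471) and -0.72 ± 0.16 for Bcl2l11, which rose less in wild-type cells. Among genes that fell, a negative difference means the deeper fall in wild-type cells. It was -1.67 ± 0.27 for A530021J07Rik, -1.50 ± 0.23 for Tnfsf10, -1.43 ± 0.18 for Ccdc69, -1.28 ± 0.28 for Igfbp4, -1.15 ± 0.15 for Lgals1 and -1.03 ± 0.24 for Slc16a5. Smaller negative values were found for Cd44 (-0.98 ± 0.18), Ubtf (-0.71 ± 0.14) and Il18r1 (-0.59 ± 0.13).

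The fall was shallower in wild-type cells for Ccr9 (1.91 ± 0.27), Kif23 (1.87 ± 0.36), Klrd1 (1.24 ± 0.15, adjusted p = 0.000723) and Ptpn6 (1.15 ± 0.18). The same held for Cd27 (0.87 ± 0.15), Cd3g (0.84 ± 0.12), Cd5 (0.74 ± 0.16) and Pdcd4 (0.65 ± 0.13). The sign of the difference was kept for all 23 genes under the 21 alternatives in which it was fitted. The call was kept throughout for 10 of them, A530021J07Rik, Ccr9, Cd27, Cd3g, Irf4, Klrd1, Lgals1, Mxd1, Ptpn6 and Tnfsf10. With probe sets averaged it was lost for Ccdc69, Cd44, Fyn, Plagl1 and Ubtf, without possibly cross-hybridising probe sets for Ccdc69 and Plagl1, in the fit of the 12 CD4 arrays for Bcl2l11, Cd5 and Igfbp4, and without single CD4 arrays of either genotype for Bcl2l11, Cd5, Fyn, Ifng, Igfbp4, Il18r1, Kif23, Pdcd4 and Slc16a5.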

How the results depend on the processing

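Of 215 genes named above (Hspa1b and Hspe1 not counted), 3 lost a call under any of 17 alternatives (Plagl1, Cd40lg and Gp1bb, as described) and none changed direction. Leaving out 1 wild-type array at a time gave 1823 to 1930 genes higher and 2933 to 3037 lower, with 4743 to 4778 of the 5451 calls kept. With probe sets averaged, 4859 of the 5451 calls were kept and 12 genes were called the other way. The changes of 29 of 211 called genes moved by over 1.5 times, as given beside them. Of 2813 called genes with over 1 probe set, 119 had probe sets called both ways. Arrays with consecutive sample numbers in their titles deviated together only weakly (correlations 0.047, 0.062 and 0.030, with 5 of 6 arrays closest to their own number) and were not treated as paired, although Hba-a1, S100a8 and S100a9, genes of red cells and neutrophils, were highest on replicate 3 and lowest on replicate 2 of both groups. With these pairs as a replicate block 2373 genes were higher and 3474 lower, with 5267 calls kept. With every probe set tested 3995 probe sets were higher and 4729 lower. With a 2-fold threshold added to the main fit of 1 probe set per gene, 415 genes were higher and 1111 lower. Differences between genotypes numbered 103 to 287 with 1 CD4 array left out, 351 with array weights and 325 without the 2 arrays of largest Gapdh difference, alternatives chosen after the data were seen.

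Shifts of list medians were set against 0.124, the median over genes of the SD of a single gene between arrays of a group. This is not the spread of a list median. Medians moved by more than it with dim genes left out (immediate early factors 0.79, chemokines 0.92, surface molecules 0.51, cytokine receptors -0.44) and with probe sets averaged (glycolysis -0.14, mTOR 0.013). The same held with array weights (interferon -0.24) and without possibly cross-hybridising probe sets (cytokine receptors -0.44, NF-kB 0.48). With 1 array left out the immediate early median ranged from 0.18 to 0.51, the NF-kB median from 0.48 to 0.65, the chemokine median from 0.14 to 0.37, the mitosis median from -0.12 to 0.037 and the interferon median from -0.61 to -0.12. The causes were not tested. Precision is limited by 3 arrays a group, and below the table median, where 7562 genes lie in both groups, a missing call says little.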

Other observations

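Among gene families picked after their values were seen, 2 families of interferon-inducible GTPases rose. Of 7 immunity-related GTPases, which attack vacuoles that hold pathogens, 6 were called higher and 0 lower in limma (6 and 0 at an unadjusted p under 0.05), namely Iigp1 (2.95 ± 0.26), Irgm2 (2.70 ± 0.21), Irgm1 (2.19 ± 0.19), Igtp (2.12 ± 0.17), Tgtp1 (1.54 ± 0.13) and Ifi47 (1.33 ± 0.14). Iigp1 read 9.32, 9.06 and 8.52 at rest and 12.12, 11.51 and 12.11 after 4 h. The stimulated arrays of Iigp1 all lie above the resting ones. Of 6 guanylate-binding proteins 4 were called higher and 0 lower (5 and 0 at an unadjusted p under 0.05), Gbp2, Gbp3, Gbp10 (2.16 ± 0.24) and Gbp7 (1.41 ± 0.19). Genes of these families resemble each other closely, and probe sets can read more than 1 of them. Over all genes 12.8% were called higher and 19.1% lower.

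Of 24 integrin chains 8 fell and 0 rose in limma (9 and 0 at an unadjusted p under 0.05). Of 10 toll-like receptors, which sense microbial products, 3 fell and 0 rose (4 and 0 unadjusted). Of 44 ubiquitin-specific proteases, which remove ubiquitin from proteins, 17 rose and 8 fell. Of 41 olfactory receptor genes, which T cells are not known to use, 1 was called higher and 1 lower, and 1 lay above the table median.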
